A study of Mus musculus with 17 samples.

Results

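The complement genes described here were C3, C4b, Cfb, Cfi, Cd55 and Cd59a, 6 of the 43430 mouse genes in each count table. They were chosen by symbol for their roles in the complement system, with earlier results of these data known, and found in the tables by Ensembl gene ID. Their RNA was counted in 17 libraries of alveolar epithelial type 2 (AT2) cells, the surfactant-making cells of the lung alveolus, sorted by flow cytometry from C57BL/6J mice aged 2 months. Poly(A) libraries (3 ng of RNA each) were made from naive mice given vehicle or ISRIB 24 h earlier, 4 per group. ISRIB is a compound that acts on eIF2B and lets translation go on when eIF2 is phosphorylated. Total-RNA libraries (0.35 ng of RNA each) were made from 4 naive samples and from 5 samples taken 14 days after bleomycin, whose lung injury is a standard model of fibrosis. All 9 of these carry the treatment label vehicle and the word saline in their titles. The labels give no dose of either drug and do not say whether the replicates of a group came from separate mice, so the p-values measure the spread between libraries, which may in part be technical. The groups of one kit were compared only with each other, and libraries are named by group and replicate number.

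Complement is a set of proteins that mark surfaces for uptake and attract or lyse cells. The classical and lectin pathways cleave C4 and C2, the alternative pathway uses factor B, and both routes form enzymes that cleave C3, after which C5 to C9 can build a pore in the membrane. Factor I, a protease in plasma, cuts C3b and C4b out of the reaction, while CD55 and CD59 on the cell surface speed the decay of the C3-cleaving enzymes and block the pore. The liver makes most complement in plasma, and alveolar type 2 cells are among the epithelia known to make complement proteins locally.

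The gene C3 lies at chr17:57203970-57228136 on the minus strand, C4b at chr17:34728380-34743882 (minus) and Cfb at chr17:34856374-34862518 (minus), the latter pair within the major histocompatibility complex. Cfi lies at chr3:129835884-129875332 (plus), Cd55 at chr1:130439027-130462744 (minus) and Cd59a at chr2:104095801-104115354 (plus). These are positions in GENCODE release M21 on GRCm38, and all 6 are protein-coding there. Upstream sequence was available from the RefSeq promoter table (GRCm38.p6) for C3, Cd55 and Cd59a. The 250 bases before each start site are printed 5′ to 3′ on the gene's strand, with capitals marking motif matches. They set C3, whose RNA rose after bleomycin, beside the pair of surface regulators. For C4b, whose RNA rose too, no upstream sequence was available.
C3, chr17:57228137-57228386 (minus strand): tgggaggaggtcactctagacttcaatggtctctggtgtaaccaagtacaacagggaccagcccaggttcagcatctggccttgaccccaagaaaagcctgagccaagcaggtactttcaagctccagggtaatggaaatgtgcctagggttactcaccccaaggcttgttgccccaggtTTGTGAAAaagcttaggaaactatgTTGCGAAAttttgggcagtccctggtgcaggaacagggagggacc
Cd55, chr1:130462745-130462994 (minus strand): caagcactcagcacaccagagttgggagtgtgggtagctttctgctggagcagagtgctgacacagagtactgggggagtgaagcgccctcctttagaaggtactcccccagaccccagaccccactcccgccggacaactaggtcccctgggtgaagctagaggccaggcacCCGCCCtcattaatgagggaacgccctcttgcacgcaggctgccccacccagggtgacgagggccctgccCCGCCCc
Cd59a, chr2:104095551-104095800 (plus strand): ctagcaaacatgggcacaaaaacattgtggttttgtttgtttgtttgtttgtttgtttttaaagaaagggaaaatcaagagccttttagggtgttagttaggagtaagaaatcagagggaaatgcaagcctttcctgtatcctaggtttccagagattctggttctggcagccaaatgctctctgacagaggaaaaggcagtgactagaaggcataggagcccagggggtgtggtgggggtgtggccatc

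Each sequence was searched on both strands for letters that resemble the sites of C/EBP (TTGNNNAA), STAT (TTCNNNGAA) and AP-1 (TGANTCA) factors, for a TATA box (TATAAA), for a GC box (GGGCGG) and for the NF-kB motif. The C3 sequence held 2 C/EBP matches, at -70 to -63 and at -45 to -38 from the start site, and no other match. At least 1 C/EBP match stood in 33.3% of the 32851 promoters of the same length. The Cd55 sequence held 2 GC boxes, both on the opposite strand, at -77 to -72 and at -7 to -2, a motif found in 32.7% of promoters. The Cd59a sequence held none of the 6 motifs. The NF-kB, STAT, AP-1 and TATA letters, absent from all 3 windows, stood in 7.25%, 7.02%, 6.75% and 12.4% of promoters. GC content was 52% for C3, 64% for Cd55 and 44.8% for Cd59a.

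Poly(A) libraries held 10493574 to 15727139 counts and total-RNA libraries 3295257 to 6333166. A count of 3, taken as the limit that a count of 0 allows, equals 0.191 to 0.286 CPM (counts scaled to a common library size) in the first set and 0.474 to 0.910 CPM in the second, for counting error only. ISRIB 1 and ISRIB 3 resembled each other more than either resembled ISRIB 2 or ISRIB 4 (chi-square per degree of freedom of 3.68 between them, and 8.25 to 9.60 across the 2 pairs), and this split recurs in C3 below. In the AT2 check, all 10 AT2 markers were tested in both tables and their summed level was 83641 to 91138 CPM in naive libraries. CPM use library sizes adjusted by trimmed-mean (TMM) factors. A gene counted as called at a Benjamini-Hochberg adjusted p under 0.05 in edgeR's two-sided quasi-likelihood test over all genes tested, and every adjusted p below is from that test unless another is named. Samples are bulk, so fewer cells of a type and less RNA per cell cannot be told apart.

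After bleomycin, C3 and C4b RNA rose. C3 rested on at least 1169 counts in every library, and C4b on as few as 2. Cfb was read only in bleomycin libraries of the total-RNA set, at a handful of counts, and Cfi, Cd55 and Cd59a were not called. Of the 5 members tested, 2 were called higher and 0 lower, beside 20.5% of all 11223 genes called in either direction (11.2% higher and 9.31% lower). Low naive counts mean that C4b and Cfi stay in the test through the group where they are higher. After ISRIB none of the 5 members tested was called by edgeR, beside 2.2% of all 12054 genes (1.1% higher and 1.1% lower), and in 0 of the 5 were the groups free of overlap, beside 8.65% of all genes. DESeq2 and limma-voom called 0 of the members as well. C4b and Cd55 had an unadjusted p under 0.05, as did 16.04% of all genes. The members' median log2 fold change after ISRIB was 0.14. The plot of CPM in every library shows both sets side by side.

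**Figure D1:**
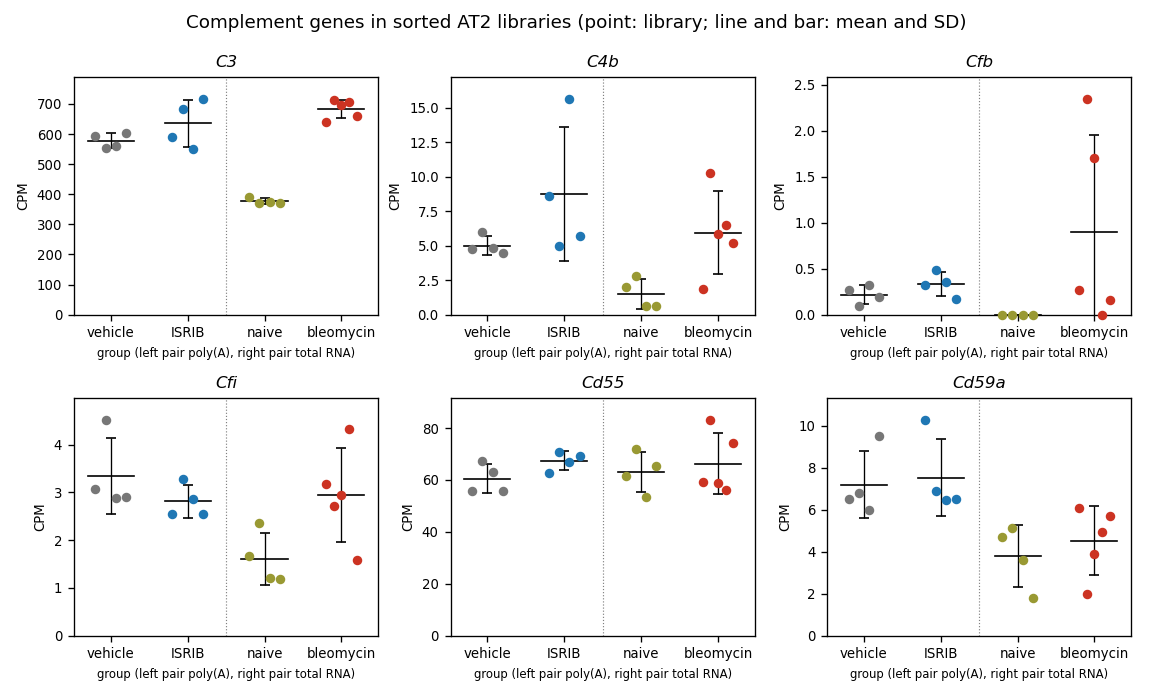
CPM of the 6 complement genes (y axis, from 0) in each library by group (x axis); points are libraries, lines are group means and bars 1 SD, with the poly(A) groups left of the dotted line and the total-RNA groups right of it. All 5 bleomycin libraries lie above all 4 naive libraries for C3, from 641 CPM upward against 392 CPM at most, and for no other tested member.

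C3 encodes the central component on which all activation routes meet. Naive libraries 1 to 4 held 392, 371, 375 and 372 CPM, and bleomycin libraries 1 to 5 held 641, 715, 696, 705 and 661 CPM. Every bleomycin library lay above every naive one, as in 19.7% of all genes whose groups did not overlap in either direction. The mean went from 377 ± 9.89 CPM (SD, n = 4) to 684 ± 31.1 CPM (SD, n = 5), which is 1.81-fold, or 0.86 on the log2 scale (SE 0.10, 95% interval 0.64 to 1.08), with an adjusted p of 1.59e-05 in edgeR. The call held under each of the 16 alternatives run, with log2 fold changes from 0.84 to 0.88. By mean CPM over all libraries C3 ranked 121st of 11223 tested genes in the total-RNA table and 134th of 12054 in the poly(A) table.

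In the poly(A) set, vehicle libraries 1 to 4 held 595, 554, 561 and 603 CPM of C3, and ISRIB libraries 1 to 4 held 590, 684, 551 and 717 CPM. ISRIB 2 and ISRIB 4 lay above every vehicle library, while ISRIB 1 and ISRIB 3 lay within or just below the vehicle range. The difference on the log2 scale was 0.14 (SE 0.07, 95% interval -0.02 to 0.29), with an adjusted p of 0.374 in edgeR.

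Cfb encodes factor B, the protease that joins C3b in the alternative pathway's C3-cleaving enzyme. It fell below the filter on low counts in both tables and was not tested. Counts in the 4 naive libraries were 0, 0, 0 and 0, and in bleomycin libraries 1 to 5 they were 1, 13, 11, 0 and 1. Bleomycin 2 and bleomycin 3 thus held 24 of the 26 reads. With the naive group set to a limit of 3 counts over the group, the pooled level after bleomycin was 5.16-fold higher. This ratio ran from 3.29 to 6.52 when 1 library was left out. It is not a lower bound, because the 26 pooled bleomycin reads enter it without their own error or the spread between libraries. Without both bleomycin 2 and bleomycin 3, a choice made after seeing the data, 2 counts were left, which is under that limit, so no fold is given. When the filter that Cfb failed was dropped, edgeR called it at an adjusted p of 0.0322, a fit that rests on these same 26 reads. In the poly(A) set, where depth was greater, vehicle libraries held 3, 1, 5 and 2 counts and ISRIB libraries 5, 6, 4 and 2.

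The level of Cfb is uncertain for another reason. Of its 2825 exon bases, 2246 also belong on the same strand to Gm20547, a gene model that spans C2 and Cfb, and 73% of its 50-base stretches occur in that model's transcripts. Gm20547 itself had 0 counts in all 17 libraries. The sources used here do not say how reads that match both models were counted.

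C4b encodes C4, which the classical and lectin pathways cleave first. Naive libraries 1 to 4 held 6, 13, 2 and 2 counts (2.01, 2.78, 0.601 and 0.596 CPM), and bleomycin libraries 1 to 5 held 7, 57, 38, 21 and 33 counts (1.85, 10.3, 5.88, 6.50 and 5.23 CPM). Bleomycin 1 lay within the naive range and the other 4 bleomycin libraries above it. The means were 1.497 ± 1.08 CPM (SD, n = 4) and 5.95 ± 3.02 CPM (SD, n = 5), a log2 fold change of 1.94 (SE 0.56, 95% interval 0.78 to 3.14), or 3.82-fold, with an adjusted p of 0.0188 in edgeR. The call was lost with limma-voom (adjusted p 0.0718), without naive 3 (0.0689) and without naive 4 (0.0754), the naive libraries with 2 counts each. It held without bleomycin 2, the highest library, at a log2 fold change of 1.64 and an adjusted p of 0.0472.

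In the poly(A) set C4b stood at 4.73, 5.97, 4.85 and 4.46 CPM in vehicle 1 to 4 and at 8.62, 4.97, 15.7 and 5.70 CPM in ISRIB 1 to 4. ISRIB 1 and ISRIB 3 lay above the vehicle range, and ISRIB 2 and ISRIB 4 within it, the reverse of the order seen for C3. The log2 fold change was 0.79 (SE 0.28, 95% interval 0.21 to 1.39), with an adjusted p of 0.159 in edgeR. It was 0.38 without ISRIB 3. With no filter on low counts the adjusted p was 9.52e-05 in edgeR, at the same log2 fold change of 0.79. In that fit all genes called rose from 265 to 648.

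C4b has a near copy, C4a, with which it shares 34.6% of its 50-base stretches, so that reads could be split or dropped between them. C4a held at most 1 count in any poly(A) library and at most 5 in any total-RNA library. Summing both genes left the calls for C4b as they were in both comparisons.

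Cfi encodes factor I, the protease that inactivates C3b and C4b with the help of cofactors. Counts were low, at 5, 11, 4 and 4 in naive libraries and 12, 15, 19, 14 and 10 in bleomycin libraries. In CPM the naive libraries stood at 1.68, 2.35, 1.20 and 1.19 and the bleomycin libraries at 3.17, 2.71, 2.94, 4.33 and 1.58. Bleomycin 5 lay within the naive range and the other 4 above it. This gave a log2 fold change of 0.81 (SE 0.50, 95% interval -0.25 to 1.86), with an adjusted p of 0.279 in edgeR, so that the interval holds both no change and one larger than that of C3. In the poly(A) set the vehicle libraries stood at 3.07, 4.52, 2.88 and 2.91 CPM and the ISRIB libraries at 2.55, 3.28, 2.86 and 2.54 CPM. The groups overlapped, and the log2 fold change was -0.25 (SE 0.22, 95% interval -0.71 to 0.21, adjusted p 0.638 in edgeR).

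Cd55 encodes decay-accelerating factor, the membrane regulator that takes apart the C3-cleaving enzymes. Naive libraries held 61.4, 72.0, 53.4 and 65.3 CPM and bleomycin libraries 59.3, 83.2, 59.0, 56.0 and 74.3 CPM, so that the groups overlapped. The log2 fold change was 0.08 (SE 0.14, 95% interval -0.22 to 0.37), with an adjusted p of 0.757 in edgeR, and it was -0.01 without bleomycin 2. After ISRIB, Cd55 stood at 62.6, 70.8, 66.8 and 69.4 CPM, against 55.9, 67.4, 63.1 and 55.7 CPM in vehicle libraries. On the log2 scale the difference was 0.15 (SE 0.07, 95% interval 0.0048 to 0.30), with an unadjusted p of 0.0438 and an adjusted p of 0.294 in edgeR. The upper bounds of 0.37 after bleomycin and 0.30 after ISRIB limit how large a rise these data allow for this gene. Cd55 shares 8% of its 50-base stretches with its copy Cd55b, which held at most 4 counts per library, and 102 exon bases with the antisense model Gm16083, whose reads cannot be told apart where strand is not used.

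Cd59a encodes the membrane protein that blocks assembly of the pore. Naive libraries stood at 4.70, 5.13, 3.60 and 1.79 CPM and bleomycin libraries at 6.08, 1.99, 3.87, 4.95 and 5.70 CPM, with overlapping groups. The log2 fold change was 0.23 (SE 0.44, 95% interval -0.70 to 1.15), with an adjusted p of 0.767 in edgeR, and its sign turned without naive 4 (-0.0052). Vehicle libraries stood at 6.49, 6.78, 5.97 and 9.51 CPM and ISRIB libraries at 10.3, 6.89, 6.44 and 6.49 CPM. Here the log2 fold change was 0.10 (SE 0.16, 95% interval -0.26 to 0.44, adjusted p 0.860 in edgeR), and -0.10 without ISRIB 1. Cd59a shares 3.87% of its 50-base stretches with Cd59b, which held at most 7 counts per library.

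**Figure D2:**
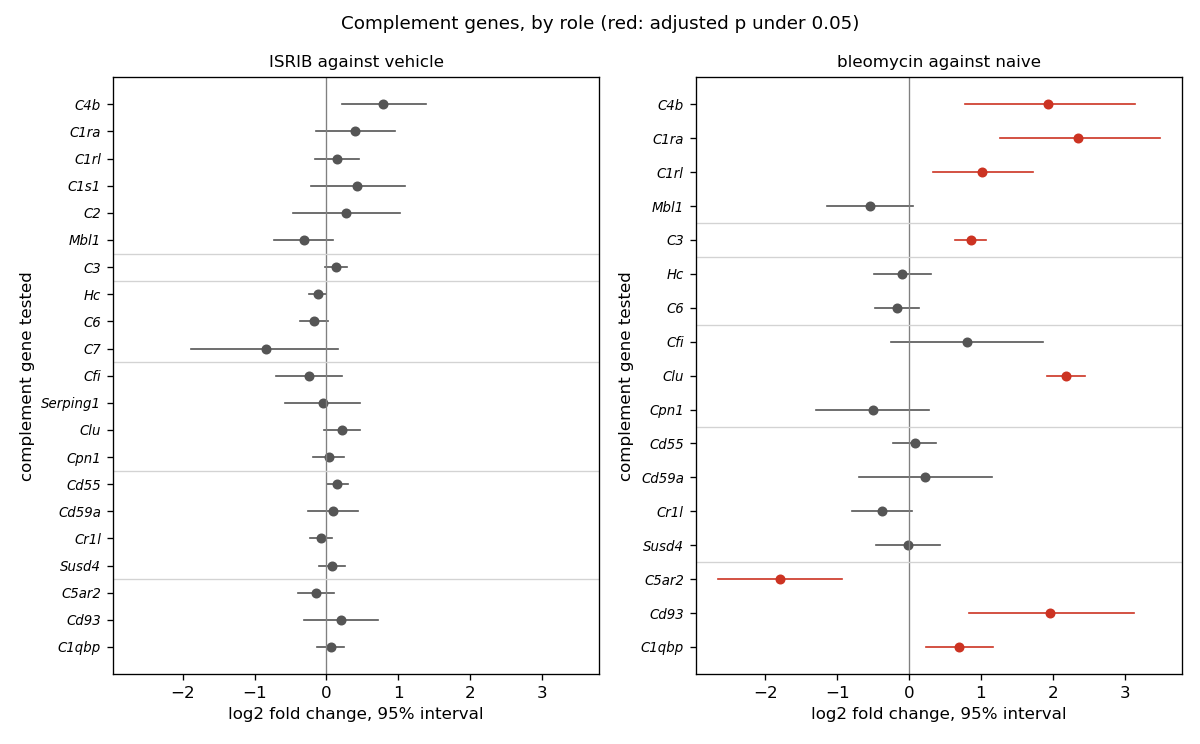
Log2 fold change with 95% interval (x axis) of the complement genes tested (y axis, grouped by role, grey lines between roles, 1 gene not shown), ISRIB against vehicle on the left and bleomycin against naive on the right; red marks an adjusted p under 0.05. None of the genes on the left is red, and 8 of those on the right are, 7 to the right of 0 and 1 to the left.

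Levels between genes were compared as CPM per kilobase of exon, which corrects for length only. In vehicle libraries the order among the members was C3 (112 ± 4.67), Cd55 (12.5 ± 1.18), Cd59a (3.97 ± 0.875), Cfi (1.51 ± 0.355) and C4b (0.879 ± 0.116; all SD, n = 4), and the lowest, Cfb, was under the filter. Naive total-RNA libraries gave the same order, with 73.4 ± 1.92 for C3, 12.99 ± 1.60 for Cd55, 2.10 ± 0.822 for Cd59a, 0.723 ± 0.246 for Cfi and 0.263 ± 0.190 for C4b (SD, n = 4). After bleomycin C3 reached 133 ± 6.05 per kilobase (SD, n = 5), and C4b (1.04 ± 0.530) and Cfi (1.33 ± 0.444) were within an SD of each other. Hc, which encodes C5, the start of the pore pathway, was higher per kilobase than every member, at 947 ± 50.5 in vehicle and 750 ± 20.7 in naive libraries (SD, n = 4). C6, the next pore component, stood at 88.9 ± 7.62 in vehicle libraries, below C3.

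**Figure D3:**
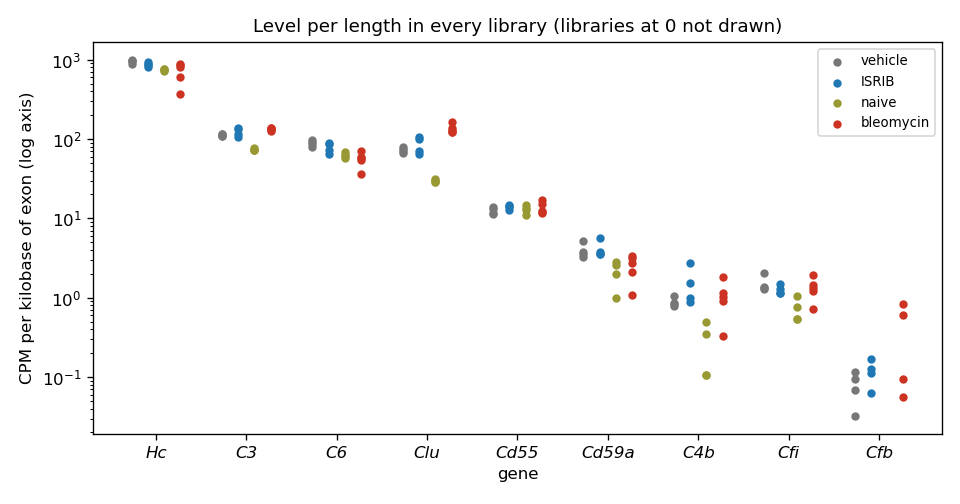
CPM per kilobase of exon (y axis, log scale) of the 6 complement genes and of Hc, C6 and Clu (x axis), 1 point per library and 1 colour per group, with libraries at 0 not drawn. Hc lies above all other genes shown in every group, and C3 lies above the other 5 members in every library.

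The rest of the pathway was taken from a list of 60 complement genes that includes the members. The list was chosen with earlier results of these data known, so its shares of calls are a description only. Of the 60, 22 were tested in the poly(A) table, 22 had counts but fell below the filter and 16 had none. None of the 22 was called after ISRIB by edgeR, DESeq2 or limma-voom, 2 (C4b and Cd55) had an unadjusted p under 0.05, and the median log2 fold change was 0.09. Without the filter 2 were called, C4b and Clu. In the total-RNA set 18 were tested, 39 fell below the filter and 3 had no counts. After bleomycin 7 were called higher (C3, C4b, C1ra, C1rl, Clu, Cd93 and C1qbp) and 1 lower (C5ar2), or 44.4% of those tested beside 20.5% of all genes, and the groups of 5 of the 18 did not overlap, beside 19.7% of all genes. The list's median was 0.46 over the 18, and -0.01 over the 13 that are not members. Most of the list was thus too low to test in this kit, and a gene that passes through a rise in 1 group had a better chance to be tested.

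Among the classical pathway proteases, C1ra encodes C1r, which starts the cascade when C1 binds. It held 2.35, 0.855, 0.300 and 0.894 CPM in naive libraries and 6.88, 3.97, 5.42, 6.19 and 5.38 CPM in bleomycin libraries, with no overlap. Its log2 fold change was 2.35 (SE 0.53), with an adjusted p of 0.00377 in edgeR, and it was called under all 16 alternatives. Counts of C1ra were 1 to 7 in naive and 20 to 35 in bleomycin libraries. It too stays in the test through the group where it is higher. C1rl, a C1r-like protease, went from 4.55 ± 0.573 CPM (SD, n = 4) to 9.17 ± 2.79 CPM (SD, n = 5), a log2 fold change of 1.02 (adjusted p 0.0336 in edgeR). That call was lost in 9 of 16 alternatives, and bleomycin 4, at 4.33 CPM, lay within the naive range.

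Clusterin, the product of Clu, is a secreted chaperone that also holds back the pore. Clu stood at 107, 105, 97.9 and 100.1 CPM in naive libraries and at 420.1, 477, 568, 445 and 422 CPM in bleomycin libraries, with a wide gap between the groups. Its log2 fold change was 2.18 (SE 0.12), or 4.55-fold, with an adjusted p of 6.92e-09 in edgeR, and it was called under all 16 alternatives.

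Neither of the 2 pore genes tested was called after bleomycin. Hc stood at 4611, 4561, 4783 and 4829 CPM in naive libraries and at 3748, 2325, 5508, 5342 and 5092 CPM in bleomycin libraries, and differed by -0.09 on the log2 scale (SE 0.19, adjusted p 0.779 in edgeR), which became 0.07 without bleomycin 2, the lowest library. C6 went from 223 ± 16.3 CPM (SD, n = 4) to 199 ± 44.3 CPM (SD, n = 5), with an adjusted p of 0.466 in edgeR. Of all counts on the 60 genes, Hc took 83.4% to 85.0% in naive libraries and 60.0% to 77.7% in bleomycin libraries. C3 took 6.51% to 7.13% and 9.65% to 18.4%, and the 2 ranges did not overlap for either gene. Clu took 1.74% to 1.95% in naive and 6.41% to 12.3% in bleomycin libraries. These shares are parts of a fixed whole, so a lower share of Hc is not by itself a fall in its RNA.

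C5ar2 encodes a receptor for the C5a fragment that does not couple to G proteins, and it was the complement gene called lower. It stood at 14.8, 11.97, 8.11 and 11.9 CPM in naive libraries and at 3.97, 3.79, 4.80, 0.309 and 3.33 CPM in bleomycin libraries, where bleomycin 4 held 1 count. The groups did not overlap, and C5ar2 was 3.46-fold lower (log2 fold change -1.79, SE 0.41, adjusted p 0.0045 in edgeR), called under all 16 alternatives. C3ar1 and C5ar1, the receptors for C3a and C5a on myeloid cells, held at most 2 and 1 counts in any library. Cd93, a receptor of endothelial and myeloid cells, and C1qbp, a mostly mitochondrial protein that binds C1q, were called higher, with log2 fold changes of 1.96 (adjusted p 0.0145) and 0.70 (adjusted p 0.0299). The Cd93 call was lost in 3 of the 11 alternatives in which it was tested, and it fell below the filter in the other 5. Cd93 held 2 to 7 counts in naive and 7 to 58 in bleomycin libraries. It likewise stays in the test through the group where it is higher. The C1qbp call was lost in 6 of 16.

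**Figure D4:**
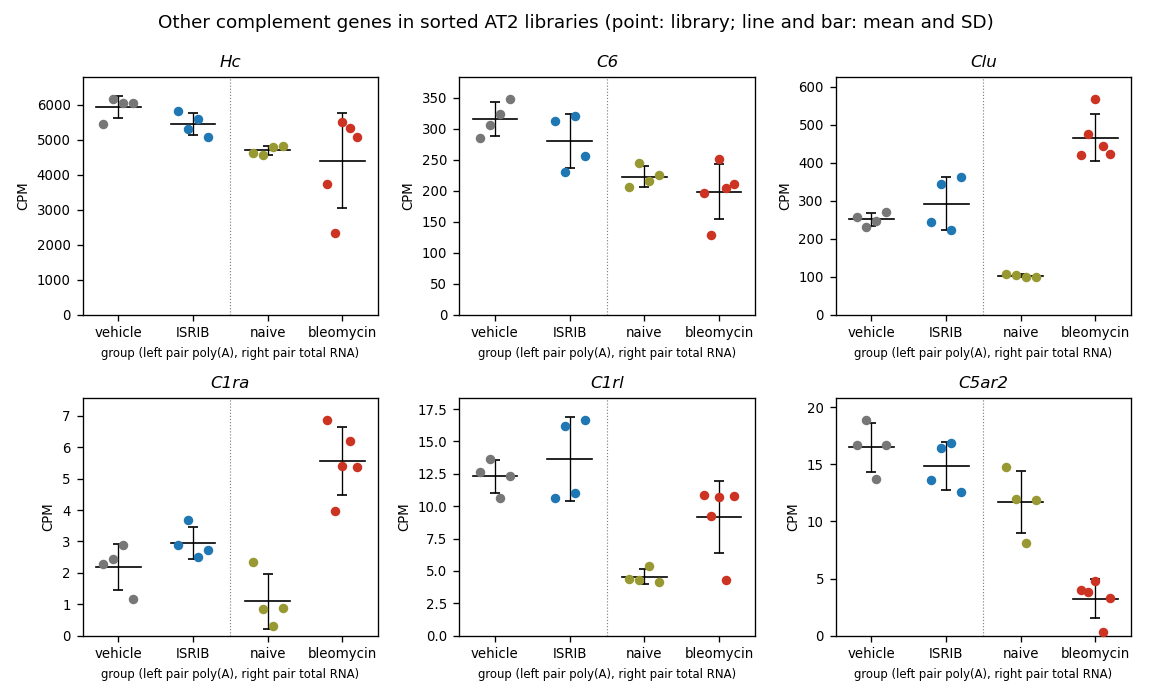
CPM (y axis, from 0) of Hc, C6, Clu, C1ra, C1rl and C5ar2 in each library by group (x axis), drawn as points with the group mean and 1 SD. Clu and C1ra lie higher and C5ar2 lower in all 5 bleomycin libraries than in any naive library, while Hc and C6 overlap between the groups.

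Some markers of other cell types were called higher after bleomycin. Fibroblasts are known to make C3, C1r, C4 and factor B. The sum of fibroblast markers (8 genes) was 2.98 to 9.39 CPM in naive libraries and 50.8, 115.7, 17.3, 22.3 and 25.5 CPM in bleomycin 1 to 5. All 3 fibroblast markers tested (Col1a1, Col1a2 and Col3a1) were called higher, and Lum had no counts. C3 in bleomycin 3 and bleomycin 4, the libraries with the lowest fibroblast sums, was 696 and 705 CPM, and 715 CPM in bleomycin 2, the library with the highest, while all 5 bleomycin sums lay above all 4 naive ones. Cfb and C4b were highest in bleomycin 2, and bleomycin 1, second in fibroblast markers, had 1 Cfb count and the lowest C4b. The part of these cells in the changes of C3, C4b, Cfb and C1ra was not tested.

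The 11 macrophage and monocyte markers summed to 22.8 to 33.5 CPM in naive libraries and 45.6 to 74.6 CPM in bleomycin libraries, and 1 of the 4 tested, Cd14, was called. Cd14 alone averaged 14.3 CPM in naive and 47.9 CPM in bleomycin libraries. In vehicle libraries of the poly(A) set it averaged 78.9 CPM, beside 0.119 CPM for Ptprc. Cd68 was not called after bleomycin (means 3.35 and 4.28 CPM, adjusted p 0.610 in edgeR), and Ptprc fell below the filter. Marco had no counts and Adgre1 had 1 count over all 9 libraries. The 8 endothelial markers summed to 19.7 to 31.9 and 22.5 to 80.3 CPM, with Cdh5 and Vwf called higher of 5 tested, and Cd93 was highest in bleomycin 5, where that sum was highest too. Mesothelial markers summed to 0.596 to 6.62 and 3.44 to 24.4 CPM (Msln called, of 1 tested), and neutrophil markers to at most 1.80 CPM. Airway epithelial markers summed to 444 to 911 and 496 to 959 CPM, and 2 of the 6 tested, Foxj1 and Dnah5 of ciliated cells, were called higher with no overlap (log2 fold changes 2.27 and 1.78, adjusted p 0.0044 and 0.00808 in edgeR). Lymphocyte markers summed to 1.79 to 8.76 and 1.32 to 9.59 CPM, with the 1 tested not called. Of the 8 alveolar type 1 markers 6 were called higher (1091 to 1317 CPM against 1751 to 2299 CPM), a cell type that AT2 cells give rise to. The AT2 marker sum was 51940 to 91718 CPM after bleomycin, and of the 10 tested Sftpd and Napsa were called higher and Etv5 lower. The part of each in the complement changes was not tested. After ISRIB no marker of another cell type was called, and of the AT2 markers Etv5 was called lower.

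C3 followed Clu more closely than it followed any other of 8764 genes compared. Likeness was measured as Pearson's r between within-group deviations of log2 CPM over the 17 libraries, a description in which the points share a library's depth and makeup. For C3 and Clu r was 0.90 (Spearman's rho 0.87). It was 0.99 over the 8 poly(A) libraries, where ISRIB 2 and ISRIB 4 were high and ISRIB 1 and ISRIB 3 low for both genes, and 0.57 over the 9 total-RNA libraries. Without ISRIB 3 and ISRIB 4, the libraries farthest from the median for C3, r was 0.80. Next for C3 came Gpd1 (0.85), a glycerol phosphate dehydrogenase, and Itga7 (0.79), an integrin subunit, both called higher after bleomycin, with log2 fold changes of 0.72 and 1.51.

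**Figure D5:**
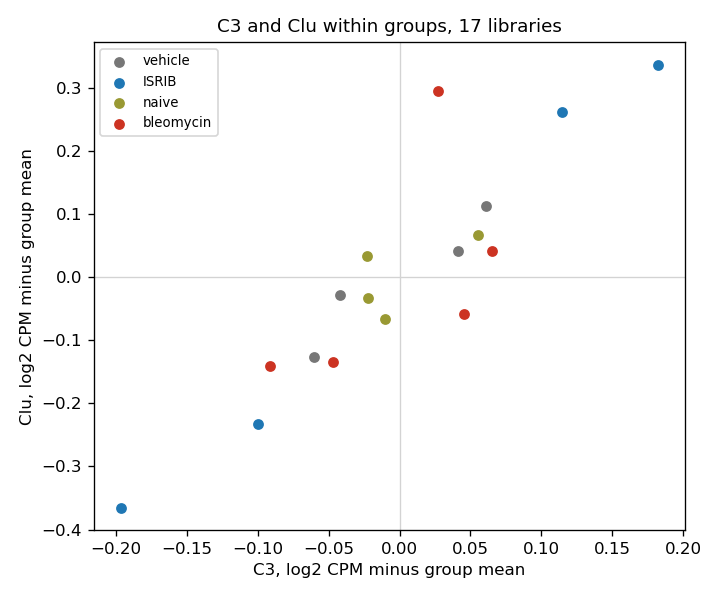
Deviation of C3 (x axis) and Clu (y axis) from the group mean, in log2 CPM, for 17 libraries coloured by group. The points rise together (r 0.90), with ISRIB 4 and ISRIB 3 at the ends, and 1 bleomycin library lies above the others for Clu at an average C3.

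Likeness between the members was low. Over their 10 pairs r ran from -0.40 (Cd55 and Cd59a) to 0.41 (C4b and Cd55), and it was -0.18 for C3 and C4b. The genes named as most like a member, C3 included, are the top 3 of 8764 over 17 libraries. Such a pick gives high r even among unrelated genes, and how high was not tested. Naive counts were as low as 2 for C4b and 4 for Cfi, so their deviations hold much counting error. The genes most like C4b were Cyb5a (0.88), Rer1 (0.85) and Haus7 (0.83), and those most like Cfi were Vat1 (0.84), Gsta3 (0.83) and Ighmbp2 (0.82). For Cd55 they were Tmem231 (0.85), Slc16a7 (0.83) and Lmf2 (0.82), and for Cd59a E2f2 (0.85), Stx7 (0.81) and Lhfp (0.81). Of these 12, Slc16a7 alone was called in either comparison, lower after bleomycin (log2 fold change -0.49, adjusted p 0.0392 in edgeR).

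Genes beside the members on the chromosome were counted as well. The 5 protein-coding neighbours on each side of each member, taken by order and not by distance, came to 55 distinct genes. After bleomycin 25 of them were tested, 2 were called higher and 1 lower, against 20.5% called among all genes. The called neighbours were Atf6b for C4b (log2 fold change 0.72, adjusted p 0.00626 in edgeR), Hipk3 for Cd59a (0.36, adjusted p 0.0261) and Pfkfb2 for Cd55 (-0.37, adjusted p 0.0334). None of the 3 tested neighbours of C3 was called. After ISRIB 28 neighbours were tested and 1 was called, Mcm6 for Cd55, lower (-0.37, adjusted p 0.0155). Mcm6 lies at chr1:128331590-128359664, against chr1:130439027-130462744 for Cd55.

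Regulators known to act on complement transcription were taken from a list of 22 genes, all of them tested in both tables. This list too was chosen with earlier results of these data known. After bleomycin 3 were called higher and 1 lower, or 18.2% beside 20.5% of all genes. Osmr, a receptor subunit for oncostatin M, rose from 91.7 ± 12.6 (SD, n = 4) to 129 ± 10.1 CPM (SD, n = 5; log2 fold change 0.50, adjusted p 0.00606 in edgeR). Ifngr2, a subunit of the interferon gamma receptor, rose by 0.93 (adjusted p 0.00395) and Nfkb2, an NF-kB subunit gene, by 0.51 (adjusted p 0.027). Nfkbiz, a nuclear NF-kB cofactor, fell by 0.93 on the log2 scale (adjusted p 7.33e-04). The 3 C/EBP genes of the list were not called after bleomycin, with log2 fold changes of 0.45 for Cebpb (95% interval 0.11 to 0.80, adjusted p 0.0569), -0.19 for Cebpa (adjusted p 0.241) and -0.05 for Cebpd (adjusted p 0.887). After ISRIB 2 of the 22 were called, both higher, or 9.09% beside 2.2% of all genes (1.1% higher). Cebpd had a log2 fold change of 0.37 (adjusted p 0.0319) with overlapping groups, and Irf2 one of 0.39 (adjusted p 0.0137).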

How the data were processed

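RNA was sequenced from 17 libraries of sorted AT2 cells. The authors deposited unnormalized read counts for each gene, in 1 table per kit. Per the submitters' processing notes, bcl2fastq 2.19.1, FastQC, Trimmomatic 0.36, STAR 2.6.0, HTSeq 0.11.2 and mm10 were used. Neither the strand setting nor the annotation release is stated in those notes. Members and gene lists were chosen with earlier results of these data known.

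Each table was filtered by group (filterByExpr, minimum count 10, minimum total 15), scaled with TMM factors and fitted in edgeR 4.0.16 (R 4.3.3), whose quasi-likelihood F test was used two-sided. Benjamini-Hochberg adjustment ran over all genes tested, with calls at 0.05. The SE is the size of the unshrunken log2 fold change divided by the root of F. Intervals are at 95% and centred on that unshrunken value, which can differ slightly from the log2 fold change printed. Alternatives were DESeq2 1.42.0, limma-voom (limma 3.58.1), RLE factors, no filter, a replicate block, summed paralogs, removal of ribosomal-RNA-like and mitochondrial genes, and leaving out each library. Named genes were all members, complement and regulator genes called, the 3 complement genes highest by mean CPM in each table, paralogs, called neighbours and, for each tested member, the 3 genes most alike among those with at least 5 CPM. Values of 1 complement gene that was tested are not reported here. Symbols and positions came from GENCODE M21 by gene ID. On simulated data, changes of 1 on the log2 scale were recovered for 181 of 199 genes at the ISRIB design and 121 of 191 at the bleomycin design. Of the simulated calls, 8.12% and 6.20% were false. The changed genes were drawn from all genes that passed the filter, so these rates are not those of low-count genes.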

Additional observations from a re-analysis of the deposited data

Results flagged for a closer look

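In groups of 4 or 5 libraries, a library's gap to the nearest other was divided by the range of the group. A library was picked out when this ratio exceeded Dixon's 95% critical value. Chance picks about 1 in 20 groups, and 6 of the 56 groups tested were picked. C3 in naive 1, at 392 CPM, stood above the other naive libraries (371 to 375 CPM) and still below every bleomycin library. Cfi in vehicle 2 was at 4.52 CPM against 2.88 to 3.07 CPM in the others. Cd59a in ISRIB 1 was at 10.3 CPM against 6.44 to 6.89 CPM. C1rl in naive 3 was at 5.40 CPM against 4.17 to 4.36 CPM, and C1rl in bleomycin 4 was at 4.33 CPM against 9.20 to 10.8 CPM. C1qbp in vehicle 2 was at 24.2 CPM against 27.2 to 27.4 CPM.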

How the results depend on the processing

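The C3, Clu, C1ra and C5ar2 calls after bleomycin held under all 16 alternatives. Complement genes called after bleomycin numbered 8 as reported and 4 with limma-voom, and 4 to 8 when 1 library was left out, with 4 each without naive 3 and without naive 4. All genes called numbered 1554 to 2584 on leaving out 1 library. After ISRIB the complement genes called were 0 as reported and 2 with no filter on low counts, where all genes called rose from 265 to 648. They ran from 86 to 269 on leaving out 1 library, with 86 without vehicle 1, 102 without vehicle 2 and 159 without ISRIB 4, while complement calls stayed at 0. The cause was not tested.

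Signs turned for genes near no change. On leaving out 1 library after ISRIB, log2 fold changes ran from -0.105 (without ISRIB 1) to 0.25 for Cd59a, from -0.162 to 0.0764 (without vehicle 2; also above 0 without ISRIB 1, 0.0528, and ISRIB 4, 0.0541) for Serping1, and from -0.0696 (without vehicle 3; also -0.0114 without ISRIB 3) to 0.0900 for Cpn1. After bleomycin they ran from -0.0146 (without bleomycin 2) to 0.15 for Cd55, from -0.00518 (without naive 4) to 0.423 for Cd59a, from -0.18 to 0.0721 (without bleomycin 2) for Hc, and from -0.134 to 0.118 (without bleomycin 4; also above 0 without naive 3, 0.0147, naive 4, 0.0963, and bleomycin 1, 0.0338) for Susd4. Susd4 was at 0.0106 with no filter and 0.0394 with limma-voom. Cfi fell below the filter in 3 of 16 bleomycin alternatives and could not be tested there.

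Same-numbered libraries did not deviate together (r -0.11 to 0.08 for ISRIB and -0.04 to 0.05 for bleomycin). Differently numbered ones ran from -0.16 to 0.14 and from -0.16 to 0.11. The check thus gave no sign that the numbers pair the samples, and it cannot exclude it. A replicate block gave 277 genes called and 0 complement genes after ISRIB. After bleomycin, where bleomycin 5 has no partner and dropped out, it gave 2099 genes called and 6 complement genes. Other scaling factors moved the median of all genes by less than 0.001.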
